A study of Mus musculus with 24 samples.

Results

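Gene expression in the epithelium of the upper small intestine (USI) was compared between mice of 24 and 12 months of age. The libraries were taken by their labels, which name 2 libraries at 24 months (A and B) and 3 libraries at 12 months (A, B and C), so that 5 of the 24 libraries of the series enter the comparison. All mice of both ages carried the Lgr5-EGFP-IRES-CreERT2 allele, a stem cell reporter and inducible Cre knocked into Lgr5, and received no treatment. The allele is shared by every group, so no wild-type mice were among the groups. Epithelial cells were freed from the cut tissue by a dissociation step, were not sorted, and were pooled. The sources used here do not say how many mice entered an RNA pool, and the p-values therefore reflect the variation among these libraries, which may be technical. They also do not give the hour of the day at which tissue was taken, and age and hour of collection therefore cannot be told apart. The question was which genes change expression late in life, between middle and old age. Libraries at 4 months (3 for the USI), the lower small intestine (LSI) and the colon (COL) shared the fit and serve as reference values.

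Many intestinal genes follow the time of day. In the molecular clock the proteins BMAL1 (encoded by Arntl) and CLOCK or NPAS2 bind E-box sequences and activate the Per and Cry genes, the products of which repress BMAL1 and CLOCK in turn. BMAL1 and CLOCK also drive the nuclear receptor genes Nr1d1 and Nr1d2 (REV-ERB), which repress Arntl and Npas2 through RORE sequences, and the PAR bZIP factor genes Dbp, Tef and Hlf, which pass the rhythm on through D-box sequences. E-box-driven genes and RORE-driven genes therefore peak at opposite times of day.

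The 5 libraries held 35470986 to 38234708 counts, where a count is a sequencing read that the authors assigned to a gene. Genes encoded by the mitochondrial genome held 14.2% and 15.4% of the counts at 24 months and 13.7% to 16.1% at 12 months (exact permutation test over the 10 arrangements, two-sided, p = 0.8), and the 10 most abundant genes held 15.2% to 17.2% of each library (p = 0.9 by the same exact test). Groups of 2 and 3 cannot give a p below 0.1 in such a test. Epithelial identity was clear in all 5 libraries, with Epcam, the epithelial adhesion molecule gene, at 1286 to 1385 CPM (counts per 1000000 of the normalized library total). The upper intestinal transcription factor gene Gata4 was at 218 to 247 CPM, whereas Fabp6, which encodes the bile acid binding protein of the ileum, was at 0.68 to 2.01 CPM. Genes of the Y chromosome had 6067 counts in the 24-month B library and 8 or fewer in each of the other 4, and Xist had 51 counts there against 24414 or more. The label gives no sex, and a part of the results is therefore also stated without this library.

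Between 12 and 24 months 4 of 17491 genes tested passed an adjusted p under 0.05 (edgeR quasi-likelihood test, Benjamini-Hochberg adjustment), which is 0.0229% of the genes. Ppp1r14d was significantly upregulated, and Rps4y2, Herpud1 and Csrnp1 were significantly downregulated. At an unadjusted p under 0.05 there were 431 genes higher at 24 months (2.46% of those tested) and 779 lower (4.45%). In 1915 genes (10.9%) both 24-month libraries lay above all 12-month libraries, and in 2307 genes (13.2%) both lay below. The median log2 fold change over all genes tested was -0.01.

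Rps4y2 is a copy of the gene for ribosomal protein S4, and despite its symbol it lies on chromosome 6 of mm9, from 148303178 to 148304120 on the plus strand. Its levels were 7.75, 6.52 and 8.39 CPM in the 12-month libraries A, B and C and 1.29 and 1.46 CPM in the 24-month libraries A and B. All 12-month libraries were above both 24-month libraries, and the group means of 7.55 ± 0.952 (SD, n = 3) and 1.37 ± 0.12 (SD, n = 2) gave a log2 fold change of -2.46 (standard error 0.23, edgeR adjusted p = 8.42e-05). At 4 months it stood at 22.7 ± 1.53 CPM (SD, n = 3), so the 3 ages did not overlap. Its parent copy on the X chromosome, Rps4x, had 339 to 444 CPM at 12 months and 377 and 391 CPM at 24 months (log2 fold change 0.01, edgeR adjusted p = 1). The coding sequences of both copies share 80.1% of 789 aligned bases in the GENCODE vM1 transcripts, with a longest identical run of 35 bases. Rps4y2 passed the threshold under all 18 alternative fits, which include the omission of each library in turn.

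Herpud1 encodes a membrane protein of the endoplasmic reticulum that takes part in the degradation of misfolded proteins and is induced by endoplasmic reticulum stress. It lies on chromosome 8 of mm9 (96910338 to 96919277, plus strand). Its levels were 247, 265 and 278 CPM at 12 months (libraries A, B and C) and 123 and 96.3 CPM at 24 months (A and B). Both old libraries were thus well below the 12-month range, with a log2 fold change of -1.27 (standard error 0.16, edgeR adjusted p = 0.00233). The 4-month libraries had 135, 170 and 138 CPM, which is nearer to 24 than to 12 months. Without the 24-month B library the adjusted p was 0.159, and in the 5 USI and 8 USI libraries fitted alone it was 0.0687 and 0.147.

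Csrnp1 encodes a nuclear protein known as a product of an axin-induced gene and lies on chromosome 9 of mm9 (119880284 to 119886368, minus strand). It had 22.9, 13.8 and 13.1 CPM at 12 months (A, B and C) and 2.69 and 3.42 CPM at 24 months (A and B). The 12-month A library was the highest, and no 24-month library reached the 12-month range (log2 fold change -2.44, standard error 0.38, edgeR adjusted p = 0.0194). The 4-month libraries had 4.5 to 5.65 CPM. The call was lost without the 24-month A (adjusted p = 0.211), 24-month B (0.181) or 12-month A library (0.101), and in the 5 USI libraries fitted alone the adjusted p was 0.0947.

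Ppp1r14d encodes an inhibitor of protein phosphatase 1 and lies on chromosome 2 of mm9 (119043855 to 119055642, minus strand). It had 56.2, 68.1 and 65.7 CPM at 12 months (A, B and C) and 115 and 111 CPM at 24 months (A and B). Both old libraries were above every 12-month library (log2 fold change 0.83, standard error 0.12, edgeR adjusted p = 0.0153) and above the 4-month libraries, which had 58.4 to 67.4 CPM. The call was lost without the 24-month A (adjusted p = 0.103), 24-month B (0.159) or 12-month A library (0.123), and in the 5 USI libraries fitted alone the adjusted p was 0.12.

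**Figure D1:**
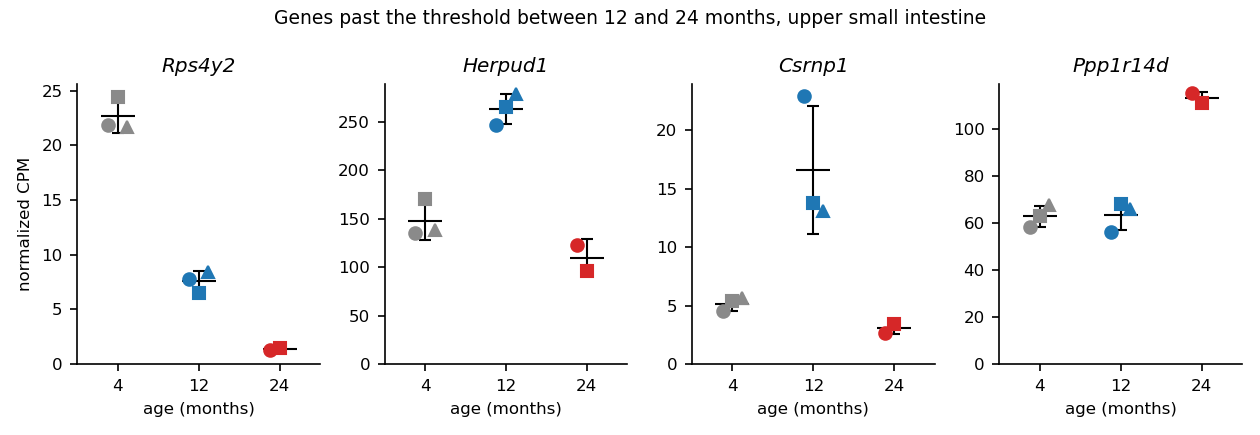
Normalized CPM (linear axes from 0) of Rps4y2, Herpud1, Csrnp1 and Ppp1r14d in the 8 USI libraries by age in months, with circles, squares and triangles for libraries A, B and C and black bars for mean ± SD. In each panel the 24-month libraries lie outside the 12-month range, and for Herpud1 and Csrnp1 the 4-month libraries lie below the 12-month libraries.

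Many genes of the circadian clock differed in level between the ages, though not past the adjusted threshold. None of 19 tested genes of the core clock and its PAR bZIP outputs passed the threshold in the fit to all 24 libraries (edgeR), where 2 had an unadjusted p under 0.05 with higher and 11 with lower levels at 24 months. In 15 of the 19 the 24-month libraries did not overlap the 12-month libraries, 3 above and 12 below. These shares compare with 2.46% and 4.45% of all genes for the unadjusted p and with 10.9% and 13.2% for the lack of overlap. The list was chosen with the clock state of these groups, a difference in Dbp and Arntl, already known. Its counts, and the p-values of its genes with or without the 4-month libraries, are therefore a description. With the 24-month A or the 24-month B library left out, 5 of the 19 had lower levels at an unadjusted p under 0.05 in each case, beside 4.06% and 2.67% of all genes, and without the 12-month C library 7 did. The median log2 fold change of the 19 was -1.09.

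The spread that the fit used came in part from the 4-month libraries, which differed among themselves. For 14 of the 19 genes the 4-month C library was nearer to the 12-month mean, while the 4-month A and B libraries were nearer to the 24-month mean for 17 and 16 genes. In a fit to the 15 libraries of 12 and 24 months, 60 of 17090 genes passed (0.351%), and 9 of the 19 clock genes were among them, 2 higher and 7 lower. The 4 genes called with all libraries were also among the 60. Leaving out each of the 5 USI libraries in turn from this fit left between 5 and 10 clock genes past the threshold, with 5 when the 24-month B library was omitted (Per1, Per2, Per3 and Nr1d2 then had adjusted p-values of 0.131 to 0.247). The 4-month libraries also differed in the summed level of 19 enterocyte maturation genes (27202 CPM in C against 3654 and 3090 CPM in A and B) and of 22 T cell and intraepithelial lymphocyte markers (464 against 37.5 and 28.4 CPM). The part of these cell type levels in the clock values was not tested.

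The activator gene Arntl had 19.2, 23.2 and 16.2 CPM at 12 months (A, B and C) and 62.5 and 68.8 CPM at 24 months (A and B). The old libraries lay above all 12-month libraries, and the 4-month libraries were split, with 57 and 59.9 CPM in A and B and 21.6 CPM in C. Its log2 fold change was 1.75 (standard error 0.45, edgeR adjusted p = 0.235) and 1.76 without the 4-month libraries (standard error 0.17, edgeR adjusted p = 0.000245). Npas2, the paralog of Clock, had 17.3, 14.1 and 16.9 CPM at 12 months (A, B and C) and 46.1 and 33.2 CPM at 24 months (A and B). Again no library overlapped between the ages (log2 fold change 1.30, edgeR adjusted p = 0.0693, and 0.000245 without the 4-month libraries). Nfil3, a repressor of D-box genes, was at 8.67 to 11.9 CPM at 12 months and at 17.5 and 20.2 CPM at 24 months, but its log2 fold change of 0.89 did not pass in either fit (edgeR adjusted p = 0.826 and 0.229). Clock itself was at 82.4 to 96.3 CPM at 12 months and 95 and 97.9 CPM at 24 months (log2 fold change 0.10, 95% confidence interval -0.16 to 0.36). Rora, a receptor gene the product of which activates through RORE sequences, overlapped between the ages, with a log2 fold change of -0.39. Cry1, a repressor gene with both E-box and RORE input, had 7.11 to 12.3 CPM at 12 months and 5.48 and 6.84 CPM at 24 months (log2 fold change -0.65, edgeR adjusted p = 0.7).

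Of the 9 tested E-box-driven repressors 8 had values in both old libraries below the 12-month range. Per1, which light and glucocorticoids also induce, had 77.6, 66.1 and 84.3 CPM at 12 months (A, B and C) and 22.3 and 11.1 CPM at 24 months (A and B). Its log2 fold change was -2.19 (standard error 0.42, edgeR adjusted p = 0.0693), and -2.18 without the 4-month libraries (edgeR adjusted p = 0.0105). Per2 was at 29.8, 35.3 and 56.1 CPM against 10.8 and 6.64 CPM in the same order of libraries (log2 fold change -2.21, edgeR adjusted p = 0.335 with all libraries and 0.0142 without 4 months). Per3 had 19.1 to 30.3 CPM at 12 months and 6.22 and 6.39 CPM at 24 months (log2 fold change -1.94, edgeR adjusted p = 0.643 and 0.00678). The largest difference in this group belonged to Gm129, now named Ciart, a repressor of BMAL1 and CLOCK. It had 8.94, 9.23 and 12.6 CPM at 12 months (A, B and C) and 1.01 and 0.905 CPM at 24 months (A and B), a log2 fold change of -3.42 (standard error 1.12, edgeR adjusted p = 0.46, and 0.000245 without 4 months).

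Of the REV-ERB genes, Nr1d1 had 221, 186 and 235 CPM at 12 months (A, B and C) and 82.8 and 72.1 CPM at 24 months (A and B), with log2 fold changes of -1.47 in the fit to all libraries (edgeR adjusted p = 0.704) and -1.46 without 4 months (edgeR adjusted p = 0.0662). Nr1d2 had 88.7 to 110 CPM at 12 months and 36.9 and 32 CPM at 24 months (log2 fold change -1.50, edgeR adjusted p = 0.588 and 0.00457). Bhlhe40, which encodes a repressor that competes for E-boxes, was at 170 to 209 CPM against 107 and 100 CPM (log2 fold change -0.84, edgeR adjusted p = 0.161 and 0.0787). Cry2 was at 7.82 to 11.4 CPM against 5.85 and 5.3 CPM (log2 fold change -0.71). Bhlhe41 was nearly absent, with 0.17 to 0.38 CPM at 12 months and 0.056 and 0.201 CPM at 24 months, and was the only repressor of the list with overlapping libraries.

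Among the PAR bZIP genes Dbp had the largest difference of all 19 clock genes. It had 26.9, 25.6 and 50.3 CPM at 12 months (A, B and C) and 1.88 and 1.28 CPM at 24 months (A and B). The old libraries lay 21.7-fold below the 12-month libraries by their means, yet 2 of the 4-month libraries were lower still, at 1.04 and 0.713 CPM, while the 4-month C library had 43.1 CPM. The log2 fold change of -4.44 had a standard error of 1.83 in the fit to all libraries (edgeR adjusted p = 0.642) and of 0.42 without the 4-month libraries (edgeR adjusted p = 0.000245). Tef had 90.2, 87.3 and 133 CPM at 12 months (A, B and C) and 20 and 13.1 CPM at 24 months (A and B), with a log2 fold change of -2.65 (edgeR adjusted p = 0.619 and 0.000245). Hlf had 7.86 to 20.3 CPM at 12 months and 2.47 and 1.56 CPM at 24 months (log2 fold change -2.69, edgeR adjusted p = 0.7 and 0.0728).

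**Figure D2:**
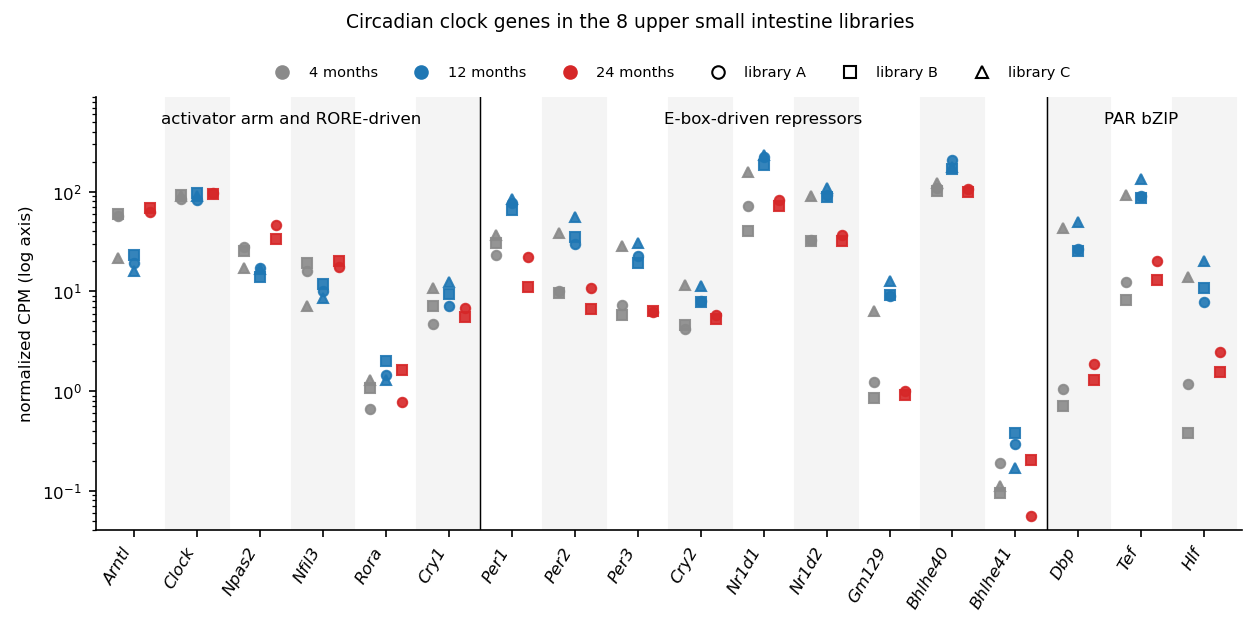
Normalized CPM (log axis) of 18 of the 19 tested clock genes in the 8 USI libraries, coloured by age and shaped by library. The 12-month libraries lie above the 24-month libraries for Per1, Per2, Per3, Nr1d1, Nr1d2, Gm129, Dbp, Tef and Hlf and below them for Arntl, Npas2 and Nfil3, and the 4-month C library (grey triangle) stands with the 12-month libraries for most of them, Per1 excepted.

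Promoter sequences are shown for clock genes that passed without the 4-month libraries and that hold a clock motif in the 250 bases before a RefSeq transcription start. RefSeq windows of GRCm38.p6, a different build from the mm9 of the counts, were matched for 16 of the 19 genes. The E-box CACGTG, which reads the same on both strands, was found in 5 of the 16 (Per1, Gm129, Tef, Cry1 and Bhlhe41), and 6.86% of 27025 genes with a window hold it. The D-box, searched as TTATGTAA or TTACGTAA on both strands, was found in Per3 and in 1.1% of all genes. The RORE, searched as TAGGTCA or TGGGTCA on both strands, was found in Nfil3 and in 6.15% of all genes. None of the 3 motifs contains another. The motif is in capitals, and each sequence is read on the strand of its gene.
Gm129 (Ciart), chr3:95882242-95882369, minus strand, 3 E-boxes starting 116, 58 and 44 bases before the start: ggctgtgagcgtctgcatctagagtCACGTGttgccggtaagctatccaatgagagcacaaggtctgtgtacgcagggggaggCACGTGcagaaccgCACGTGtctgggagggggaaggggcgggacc
Per1, chr11:69098758-69098813, plus strand, 1 E-box: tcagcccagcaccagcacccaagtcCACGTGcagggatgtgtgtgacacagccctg
Tef, upstream start, chr15:81802521-81802576, plus strand, 1 E-box: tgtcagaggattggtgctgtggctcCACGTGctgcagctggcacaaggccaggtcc
Tef, downstream start, chr15:81811251-81811306, plus strand, 1 E-box: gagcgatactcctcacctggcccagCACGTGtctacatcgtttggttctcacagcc
Per3, chr4:151044791-151044895, minus strand, 2 D-boxes: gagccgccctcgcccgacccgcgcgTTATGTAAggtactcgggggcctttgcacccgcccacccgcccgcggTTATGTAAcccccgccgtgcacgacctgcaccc
Gm129 thus held 3 E-boxes within its window, whereas Dbp, with the largest difference of all 19 genes, held none of the 3 motifs. Arntl, Npas2 and Nr1d2 also passed without the 4-month libraries and held none, and Per2 had no window. Cry1 and Bhlhe41 held an E-box and did not pass. Of the 4 called genes 3 had a window, and none of these held any of the motifs. These matches describe the letters of the windows, and binding was not measured.

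Of 10 further clock-controlled genes, Herpud1 fell significantly and 3 others had lower levels at an unadjusted p under 0.05, beside 4.45% of all genes. The 4 members came down to 1 without the 12-month C library, beside 4.08% of all genes. They came down to 2 without the 12-month B library, beside 4.19%. The median log2 fold change of the 10 was -0.45. It was -0.57 without the 24-month A library and -0.17 without the 24-month B library. The 3 others were Tsc22d3, a glucocorticoid-induced leucine zipper gene (log2 fold change -0.62), the deubiquitinase gene Usp2 (-0.99) and Coq10b, a coenzyme Q binding protein gene (-0.77). None of the 12 tested kinase, ubiquitin ligase and cofactor genes that modify clock proteins had an unadjusted p under 0.05 (edgeR, 0 called), and their median log2 fold change was 0.01.

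Immediate early genes are transcribed rapidly after growth factor signals, stress or the dissociation of a tissue, and most had lower values at 24 than at 12 months. None of the 24 tested members passed the adjusted threshold with all libraries, but 18 had an unadjusted p under 0.05 with lower levels, against 4.45% of all genes, and 21 had no overlap, against 13.2%. The median log2 fold change was -0.78, beside -0.01 for all genes tested. Without the 4-month libraries 3 of the 24 passed, all lower (Egr2, Dusp5 and Atf3). Egr2, a zinc finger factor gene, had 18, 12.5 and 11 CPM at 12 months (A, B and C) and 3.11 and 3.62 CPM at 24 months (A and B), a log2 fold change of -2.04 (edgeR adjusted p = 0.069). Nr4a1, an orphan nuclear receptor gene, had 73.5, 29.7 and 25.3 CPM against 5.63 and 8.42 CPM in the same order (log2 fold change -2.61, edgeR adjusted p = 0.0693). Atf3, a stress-induced factor gene, had 268, 176 and 133 CPM against 31.7 and 52 CPM (log2 fold change -2.20, edgeR adjusted p = 0.0958). The 12-month A library was the highest of the 5 for 18 of the 24 genes, and the summed level of the list was 9382 CPM in it, 7105 and 6220 CPM in the 12-month B and C libraries and 4219 and 4312 CPM at 24 months. The 4-month libraries summed to 3670 to 5153 CPM. The same 12-month A library was the highest for 16 of 19 stem cell and 12 of 13 Paneth cell genes, and the part of this in the early gene values was not tested. Without it 12 of the 24 had lower levels at an unadjusted p under 0.05, beside 3.34% of all genes, and without the 24-month A library 9 did, beside 4.06%. The median log2 fold change of the list was -0.84 without the 24-month B library and -0.73 without the 24-month A library. No source used here states how long the tissue of each library was dissociated.

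Other stress lists differed among themselves. The 18 antioxidant and NRF2 target genes had a median log2 fold change of 0.01, with 1 lower at an unadjusted p under 0.05. The 12 cold- and heat-responsive genes had a median of -0.36, with 4 lower at this threshold. These counts stand beside 4.45% of all genes. Without the 12-month C library 1 of the 12 was lower, beside 4.08% of all genes. Without the 24-month B library the median of the 12 was -0.08. Of 14 genes of the unfolded protein response, Herpud1 was called and 6 in all had lower levels at an unadjusted p under 0.05, beside 4.45% of all genes, with a median log2 fold change of -0.29. Without the 24-month B library 3 of the 14 did, beside 2.67%. Chac1, which encodes a glutathione-degrading enzyme induced through ATF4, had 13.2, 11.1 and 6.97 CPM at 12 months (A, B and C) and 1.74 and 1.26 CPM at 24 months (A and B). No library overlapped (log2 fold change -2.80, edgeR adjusted p = 0.0693), and at 4 months it was at 1.11 ± 0.589 CPM (SD, n = 3). The chaperone genes Hspa5 and Dnajb9, induced in the same response, had log2 fold changes of -0.51 and -0.67. Of 10 glucocorticoid target genes 7 had lower levels at an unadjusted p under 0.05, beside 4.45% of all genes (median log2 fold change -0.95), and 3 did without the 24-month B or without the 12-month C library, beside 2.67% and 4.08%. They share Per1 with the clock list and Dusp1 with the early genes, and included Klf9, a Krüppel-like factor gene, at 40.7 to 42.3 CPM against 28.2 and 27.1 CPM (log2 fold change -0.60, edgeR adjusted p = 0.0693). Plk3, a stress-responsive kinase gene that is in none of these lists, had 73.9 to 90.6 CPM at 12 months and 35.4 and 34.3 CPM at 24 months (log2 fold change -1.24, edgeR adjusted p = 0.0693).

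**Figure D3:**
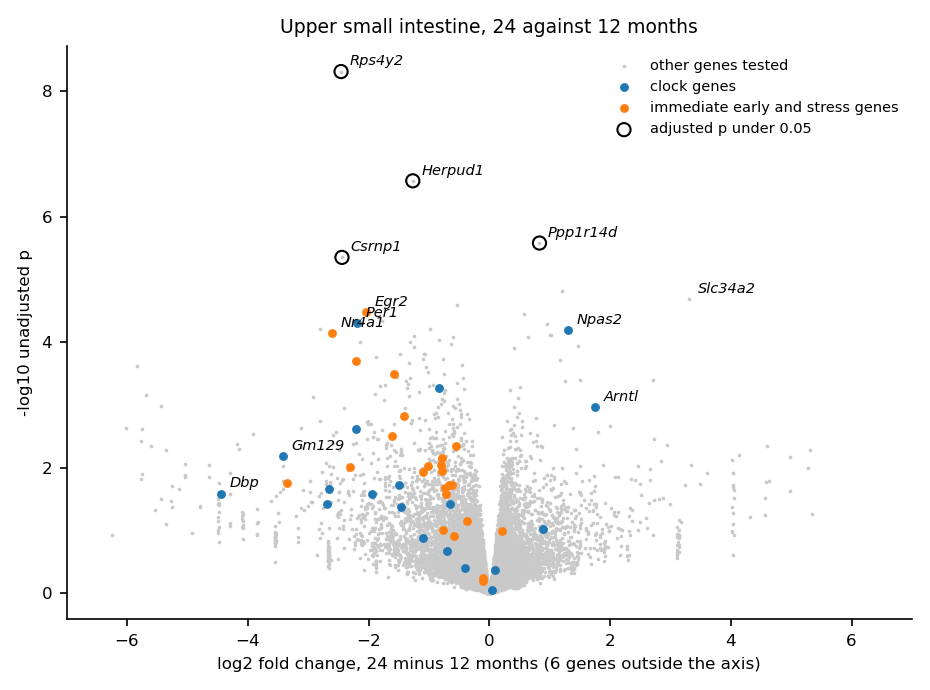
Log2 fold change (24 minus 12 months) against -log10 of the unadjusted p for the genes tested, with clock genes in blue, immediate early and stress genes in orange and the 4 called genes circled. Most orange and blue points lie on the left, and 6 genes lie outside the horizontal axis.

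Among the genes higher at 24 months, the closest to the threshold was Casp4, which encodes an inflammatory caspase that senses bacterial lipopolysaccharide. It had 20.3, 24.5 and 14.1 CPM at 12 months (A, B and C) and 43 and 47.7 CPM at 24 months (A and B), a log2 fold change of 1.21 (edgeR adjusted p = 0.0533, and 0.0252 without the 4-month libraries). Slc34a2, the gene of the intestinal sodium-dependent phosphate transporter, had the largest fold among the named higher genes. Its levels were 9.45, 4.56 and 9.13 CPM at 12 months (A, B and C) and 86.7 and 66.9 CPM at 24 months (A and B), and the 4-month libraries had 3.41 to 7.87 CPM. Both old libraries thus stood far above the other 6 (log2 fold change 3.32, standard error 0.59, edgeR adjusted p = 0.0599, and 0.000418 without the 4-month libraries). The purine nucleoside phosphorylase genes Pnp and Pnp2 had log2 fold changes of 0.58 and 0.95 (edgeR adjusted p = 0.069 and 0.0693). Their coding sequences share 98.2% of 868 aligned bases, so that reads may be split between them and neither value is certain. Dab1, an adaptor gene of Reelin signalling, was at 44.4 to 47 CPM against 98.5 and 82.6 CPM (log2 fold change 1.00), and Baiap2l1, an actin regulator gene, was at 91.1 to 108 CPM against 162 and 146 CPM (log2 fold change 0.65). The other genes of the rule on the higher side were Ypel2, Pla2g3, E030010A14Rik and 8430427H17Rik, with log2 fold changes of 0.41 to 1.47. On the lower side were Bmp3, a ligand gene of the BMP family, at 30.9 to 36.8 CPM against 18.9 and 14.9 CPM (log2 fold change -0.98, edgeR adjusted p = 0.0693), the polyadenylation factor gene Cstf2t (log2 fold change -0.53) and Tceal8 (log2 fold change -1.78).

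Genes of cholesterol synthesis had slightly higher values in the old libraries. Of 23 tested, 21 had positive fold changes, 10 had an unadjusted p under 0.05 with higher levels, against 2.46% of all genes, and 16 lay above the 12-month range, against 10.9%. None passed the adjusted threshold with all libraries (edgeR), and the median log2 fold change was 0.28. Without the 24-month B library, in which 19 of the 23 were highest, 4 had an unadjusted p under 0.05, beside 1.31% of all genes. Fdft1, which encodes squalene synthase, was at 53.8 to 62.8 CPM against 73.2 and 86 CPM (log2 fold change 0.46, edgeR adjusted p = 0.291).

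Of 29 xenobiotic metabolism genes 4 had lower levels at an unadjusted p under 0.05 (13.8%, beside 4.45% of all genes) and the median log2 fold change was -0.58. The 12-month C library was the highest for 24 of the 29, and without it, or without the 24-month B library, 0 had an unadjusted p under 0.05 (edgeR). The drug efflux pump gene Abcb1a had 222, 314 and 469 CPM at 12 months (A, B and C) and 132 and 93.5 CPM at 24 months (A and B). The cytochrome P450 gene Cyp2c29 had 22.2 to 67.4 CPM against 5.07 and 1.41 CPM. Neither passed with all libraries (edgeR adjusted p = 0.69 and 0.656) and both passed without the 4-month libraries (0.031 and 0.0385).

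The cell type lists held no gene past the adjusted threshold (edgeR). In bulk samples fewer cells of a type and less RNA per cell cannot be told apart. Lgr5, the stem cell marker that carries the reporter allele, had 66.5, 39 and 29.1 CPM at 12 months (A, B and C) and 28.5 and 35.1 CPM at 24 months (A and B), so the ages overlapped (log2 fold change -0.50, 95% confidence interval -1.20 to 0.20). Of 19 stem cell genes 1 had a lower level at an unadjusted p under 0.05 (5.26%, near the 4.45% of all genes), which was the cell cycle kinase gene Cdk6, and of 20 cell cycle genes 0 did (edgeR). The 13 Paneth cell genes summed to 25868 CPM in the 12-month A library against 12769 and 14896 CPM in C and B and 11660 and 15986 CPM at 24 months. The 19 enterocyte maturation genes ran the other way within the 12-month group, from 12667 CPM in A to 31186 CPM in C, with 13155 and 20540 CPM at 24 months. Both lists overlapped between the ages, with median log2 fold changes of -0.50 and -0.37. Markers of T cells and intraepithelial lymphocytes (22 genes) summed to 242 to 455 CPM at 12 months and 275 and 328 CPM at 24 months, and none of the 22 was at 0. Fibroblast markers (16 genes in the files) summed to 23.5 to 33.8 CPM against 39.2 and 33.3 CPM. Of 11 tested B and plasma cell markers 3 had lower levels at an unadjusted p under 0.05, beside 4.45% of all genes, with a median log2 fold change of -0.75. Irf4 and Sdc1 were among them. The number of such markers was 6 without the 12-month C library (edgeR), beside 4.08% of all genes. It was 1 (9.09%) without the 12-month A or B library, beside 3.34% and 4.19% of all genes. The median log2 fold change was -0.26 without the 24-month A library and -1.43 without the 24-month B library. The summed level of the 12 markers in the files was 147, 162 and 121 CPM at 12 months (A, B and C) and 101 and 136 CPM at 24 months (A and B), so that the ages overlapped. The part of these cell types in the differences above was not tested.

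**Figure D4:**
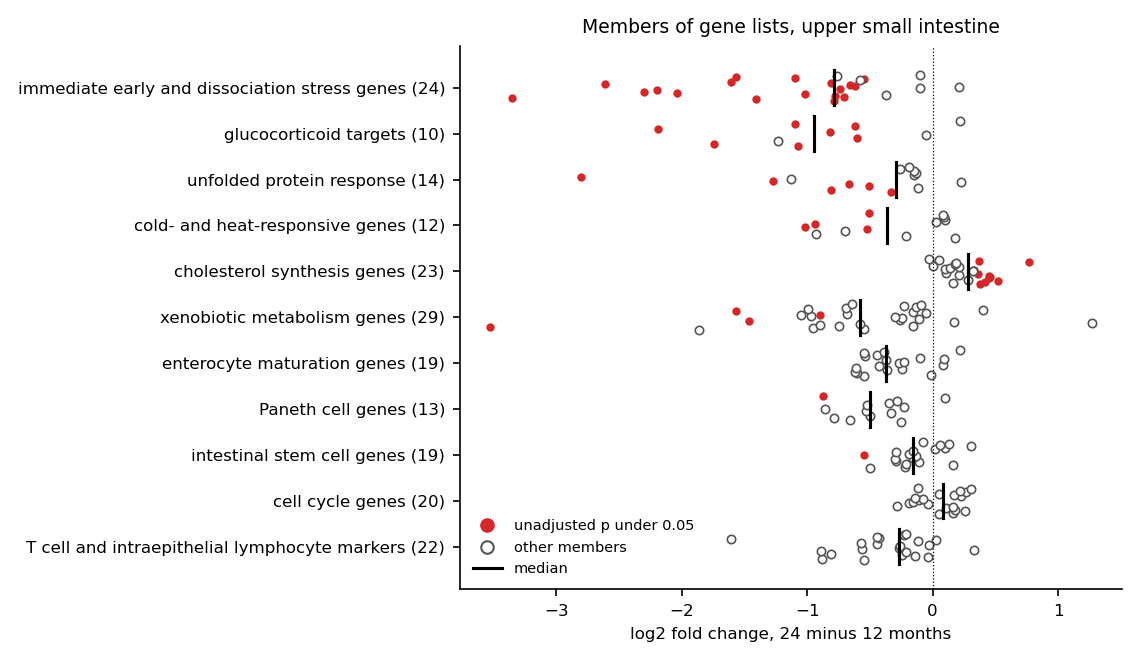
Log2 fold change (24 minus 12 months) of each tested member of 11 gene lists, with the number of members in brackets, filled red points for an unadjusted p under 0.05 and a black line at the median. The medians lie to the left of 0 for all lists but those of cholesterol synthesis (0.28) and the cell cycle (0.08).

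The difference between 24 and 12 months was then set beside that of the LSI and the colon, each with 2 and 3 libraries of these ages. At an adjusted p under 0.05 no gene had an age difference in the USI unlike that in the LSI or colon (edgeR, interaction terms). Of the 17491 genes tested, 431 (LSI) and 736 (colon) had an unadjusted p under 0.05 for these terms. Rps4y2, Herpud1 and Ppp1r14d were also called in the LSI, with log2 fold changes of -2.38, -1.11 and 0.80, and Rps4y2 was called in the colon. There it had 0.526 to 0.635 CPM at 12 months and no counts in either 24-month library. Herpud1 in the colon had 161 to 217 CPM at 12 months and 130 and 134 CPM at 24 months (log2 fold change -0.55, edgeR adjusted p = 0.467). Slc34a2 had log2 fold changes of 0.46 in the LSI and 0.19 in the colon, and the differences from the USI had adjusted p-values of 1 and 0.834 (edgeR).

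Dbp and Arntl had similar levels in the other sections. Dbp had 27.4, 47.6 and 23.3 CPM in the 12-month LSI (A, B and C) and 1.41 and 1.02 CPM in the 24-month LSI (A and B). In the colon it had 30.5, 39.2 and 26 CPM at 12 months and 1.76 and 2.37 CPM at 24 months in the same order. Arntl was at 19.7 to 27.6 CPM against 63.1 and 70.7 CPM in the LSI and at 19.5 to 27 CPM against 75.7 and 70 CPM in the colon. The 4-month C libraries of both sections had 51.9 and 54.3 CPM of Dbp, whereas the 4-month A and B libraries had 0.636 to 5.32 CPM. The sources used here do not say whether libraries with 1 letter came from the same mice in the 3 sections. Y-linked counts were high in the 24-month B and 4-month B libraries of all 3 sections and in no other library. The sections therefore cannot be counted as independent observations of the clock state. The fits treated all libraries as independent, so their p-values may be too small if mice were shared. For the 3 PAR bZIP genes the median log2 fold change was -2.69 in the USI, -3.05 in the LSI and -3.47 in the colon. The colon median is uncertain, because Hlf was nearly absent there. It had 0.231, 0.467 and 0.327 CPM at 12 months (A, B and C) and 0 and 0.0551 CPM at 24 months (A and B).

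**Figure D5:**
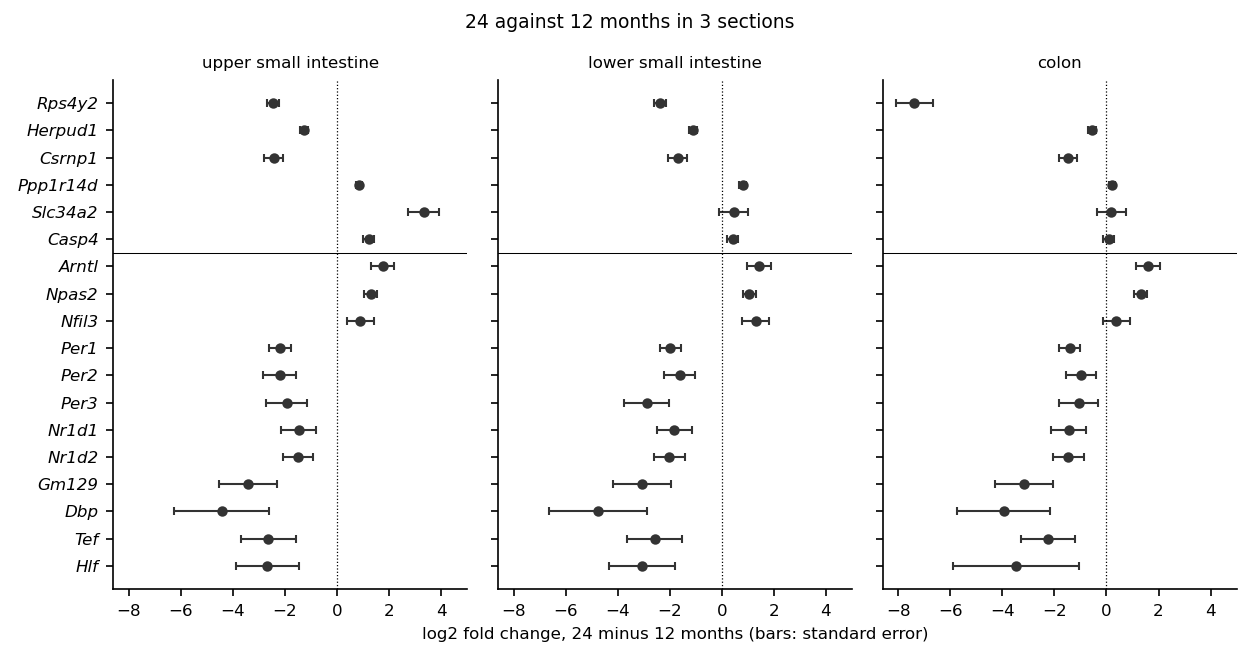
Log2 fold change (24 minus 12 months, bars for the standard error) in the USI, LSI and colon for the 4 called genes, Slc34a2, Casp4 and 12 clock genes. Most clock genes have the same sign in the 3 sections, with wide bars from the 4-month libraries in the fit, and Slc34a2 is at 3.32 in the USI, 0.46 in the LSI and 0.19 in the colon, a difference between sections that did not pass the test.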

How the data were processed

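Bulk RNA was sequenced from unsorted intestinal epithelium. The deposited files hold counts of reads per gene made by featureCounts 2.0.0, and per the file headers strand was ignored and both mates of a pair counted separately. The files also hold the gene length, which is no measurement. Gene coordinates are mm9. STAR is named for alignment in the paper's methods, while the submitters' notes list TopHat2, HTSeq and Cuffdiff. No file was re-counted. The 24 libraries were fitted together in edgeR 4.0.16 (R 4.3.3) with 1 coefficient per group (9 groups), TMM factors of 0.914 to 1.13, filterByExpr and quasi-likelihood tests on 15 residual degrees of freedom, with Benjamini-Hochberg adjustment over 17491 genes. Libraries of the same group differed by more than sampling noise. Because strand was ignored, reads of overlapping genes cannot be told apart.

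Text genes were those past the adjusted threshold of 0.05, then per direction the 12 of lowest p that had a symbol and groups without overlap, then the clock genes, Lgr5 and at most 4 members of each other list. Epcam, Gata4, Fabp6, Xist, Rps4x, Ins2, Aqp8 and other genes described beside a list were added for their role or after their values were seen. The members and lists were chosen with earlier results of these data known. The settings tried instead were the likelihood ratio test of edgeR, DESeq2 1.42.0, RLE factors, other filters and thresholds, fewer libraries, halved counts, a replicate block, and each library left out in turn. The fits without the 4-month C libraries, and without the 4-month libraries and 1 USI library, were added after seeing the data. The tests were checked on simulated counts, where the sizes of the changes were recovered and a part of the changed genes did not pass. A gene that missed the threshold here is therefore not shown to be unchanged. Apart from the changes, each simulated gene had the same mean level in all libraries, relative to the library total. Differences among sections or among the 4-month libraries were thus not simulated. Some genes that the rule names are not reported here. DNA methylation was not analysed here.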

Additional observations from a re-analysis of the deposited data

How the results depend on the processing

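With 2 old libraries the counts of calls depended on the fit. The number of genes higher and lower at 24 months (1 and 3 as reported) was 16 and 56 by edgeR's likelihood ratio test, 18 and 67 by DESeq2, 22 and 38 without the 4-month libraries, and 21 and 42 without the 3 4-month C libraries, an alternative chosen after seeing the data. It was 2 and 6 in the 5 USI libraries alone, 0 and 2 in the 8 USI libraries alone, 1 and 1 without the 6 libraries with Y-linked counts (which leaves 1 old USI library, assumed to vary like the other groups), and 3 and 5 with counts divided by 2. There were 2 higher genes with RLE factors, 2 with a filter of 1 CPM in 2 libraries and 3 with no filter, each with 3 or 4 lower. An adjusted p under 0.1 gave 12 and 24. An adjusted p under 0.05 together with a log2 fold change over 1.5 in either direction gave 0 and 2. Leaving out each library in turn gave 0 to 2 higher and 1 to 5 lower genes.

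Same-letter deviations from the group mean correlated at -0.0674 (A) and 0.136 (B), against 0.188 for the 24-month A and 12-month C libraries. The deviations of the 2 old libraries mirror each other, so these values cannot settle whether the replicate letters pair the samples. A replicate block gave 10 higher and 37 lower genes with all libraries and 24 and 68 in the 5 USI libraries, and 2 and 12 clock genes.

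The count of clock genes (0 as reported) was 4 by the likelihood ratio test and 4 by DESeq2, 5 in the 5 USI libraries, 9 without the 4-month libraries, 9 without the 4-month C libraries and 2 at an adjusted p under 0.1. It stayed at 0 to 0 with each library left out, and without the 4-month libraries it ranged from 5 to 10 in the same way. The number of genes with an age difference unlike that of the colon (0 as reported) was 12 by DESeq2 and 0 to 1 with each library left out (1 without the 24-month A library). For the LSI it was 0 by edgeR, by DESeq2 and with each library left out. Of 719 values of 40 single genes under 18 settings, 551 kept their direction and side of the threshold, 151 kept the direction and passed, 16 lost the call and 1 reversed. Most of the 40 genes were chosen because their groups did not overlap, so reversals were unlikely from the start. The kept directions are therefore no test of these genes. The reversal was Rora (0.02 without the 24-month A library, range -0.99 to 0.02 with each library left out). The cause was not tested.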

Other observations

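The insulin gene Ins2, chosen after its values were seen, had 0, 0.0543 and 81 CPM in the 12-month libraries A, B and C and 17.2 and 18.7 CPM in the 24-month libraries A and B, so that the groups overlapped (log2 fold change -0.59, edgeR adjusted p = 0.993). The summed level of 18 pancreatic acinar genes was 1177 to 1640 CPM at 12 months and 1520 and 907 CPM at 24 months. A link between these values was not tested.

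Genes of the duodenal Brunner gland and the stomach (13 in the files) summed to 412, 1275 and 1268 CPM at 12 months and to 208 and 448 CPM at 24 months, and at 4 months they ranged from 53.4 to 3285 CPM. Pgc, which encodes a pepsinogen, had 13.2, 51 and 53.5 CPM at 12 months (A, B and C) and 8.8 and 6.71 CPM at 24 months (A and B), a log2 fold change of -2.34 (edgeR adjusted p = 0.517).

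Of 15 antimicrobial and acute phase genes tested 7 lay above the 12-month range in both old libraries, beside 10.9% of all genes. At an unadjusted p under 0.05 there were 2 higher members (13.3%, beside 2.46% of all genes). There were 0 without the 12-month A or the 12-month C library (edgeR), beside 2.16% and 1.98% of all genes. The median log2 fold change of the list was 0.92, and 0.70 without the 24-month B library. Duox2, which encodes the dual oxidase of the mucosa, had 48.7, 68.8 and 31.9 CPM at 12 months (A, B and C) and 80.1 and 140 CPM at 24 months (A and B), a log2 fold change of 1.14 (edgeR adjusted p = 0.654). At 4 months its mean was 105 CPM.

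Aqp8, a water channel gene typical of the colon and chosen after its values were seen, had 0.7, 0.815 and 1.13 CPM at 12 months (A, B and C) and 8.8 and 2.87 CPM at 24 months (A and B). No library overlapped, with a log2 fold change of 2.72 (edgeR adjusted p = 0.146, and 0.0188 without the 4-month libraries). Among 17 genes of colon identity 1 was higher and 1 lower at an unadjusted p under 0.05 (5.88% each way, beside 2.46% and 4.45% of all genes), and their median log2 fold change was -0.29.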
